A study of Mus musculus with 18 samples.

Results

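A set of 10 genes linked to low oxygen was followed through mouse tail tendon fibroblasts (TFs): the secreted hormones *Adm*, *Stc1* and *Stc2*, the cytoplasmic or stress regulators *Ddit4*, *Ankrd37* and *Ndrg1*, and the transcriptional regulators *Mxi1*, *Bhlhe40*, *Bhlhe41* and *Rora*. They are 10 of the 55491 rows of the count file, found by gene symbol, and all 10 passed the filter on low counts. Poly-A RNA was sequenced as 18 libraries, 3 in each of 6 groups, after 4 days of culture on tissue culture plastic. The Ctrl TFs came from mice without Cre, labelled wild-type, although the paper describes its Cre-negative Ctrl mice as *Hif1a* flox/flox. The cKO TFs came from *Hif1a* flox/flox mice with Scx-Cre, a Cre driven by the scleraxis gene of the tendon lineage. A further arm held Ctrl TFs given Cre gesicles, which are vesicles that carry Cre protein into cells. Each arm was cultured in 20% O2 (normoxia) and in 1% O2 (hypoxia), and the mice were males and females aged 4 to 6 months. The comparisons asked how each gene responded to 1% O2, whether that response needed *Hif1a*, and how gesicle-treated TFs differed from untreated Ctrl TFs. Whether the gesicles removed *Hif1a* from floxed cells was not tested.

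Cells short of oxygen stabilise the alpha subunits of the hypoxia-inducible factors (HIFs), which pair with ARNT and bind short DNA motifs near their target genes. Beside metabolic enzymes, low oxygen has been linked to hormones and regulators such as those studied here. Adrenomedullin, encoded by *Adm*, is a vasodilator peptide, and the stanniocalcins restrain IGF signalling by blocking the pappalysin proteases. DDIT4 (REDD1) holds back mTORC1, MXI1 competes with MYC for MAX, BHLHE40 and BHLHE41 (DEC1 and DEC2) repress clock genes through E-boxes, and RORA activates the clock gene *Arntl*. Tendon is sparsely vascularised.

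Library totals ran from 6857558 to 51806453 counts, and the smallest belonged to replicate 1 of cKO in 1% O2, while the other 17 held at least 26967440. All 8 tendon fibroblast markers were detected in every group, and the 5 endothelial markers summed to at most 0.885 CPM (counts scaled to library size) in any library. *Hif1a* was not lower in the libraries labelled cKO: in 20% O2 it stood at 405, 294 and 431 CPM in cKO against 335, 339 and 371 CPM in Ctrl, and in 1% O2 at 427, 398 and 503 CPM against 488, 365 and 406 CPM. In gesicle-treated TFs *Hif1a* stood at 347, 341 and 397 CPM in 20% O2 and at 393, 370 and 387 CPM in 1% O2. A count over the whole gene does not show the loss of part of it, and reads of the Cre transgene were found in 5 of 6 cKO libraries, with 1 to 5 counts, and in none of the other 12. In bulk RNA, fewer cells of a type and less RNA per cell cannot be told apart.

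The promoters of the 2 genes that rose in all 3 arms, *Ankrd37* and *Adm*, are printed here because they were called in the most comparisons, together with that of *Bhlhe41*, which was chosen after its values were seen because it carries the same letters and did not rise. Each run is 250 bases before to 50 bases after the RefSeq start in GRCm38.p6, in the direction of transcription, and capitals mark the HIF core, ACGTG or GCGTG on either strand, with overlapping matches counted as 1. The *Ankrd37* promoter (chr8:45999801-46000100, minus strand) held 3 matches beginning 241, 155 and 6 bases before the start, the *Adm* promoter (chr7:110627407-110627706, plus strand) 2 at 90 and 54 bases, and the *Bhlhe41* promoter (chr6:145865371-145865670, minus strand) 3 at 153, 119 and 66 bases.
Ankrd37: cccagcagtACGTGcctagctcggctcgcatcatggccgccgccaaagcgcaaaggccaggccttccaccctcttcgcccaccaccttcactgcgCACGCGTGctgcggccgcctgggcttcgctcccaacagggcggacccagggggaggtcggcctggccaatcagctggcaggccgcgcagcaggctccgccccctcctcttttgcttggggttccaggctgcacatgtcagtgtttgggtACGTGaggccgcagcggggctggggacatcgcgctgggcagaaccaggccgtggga
Adm: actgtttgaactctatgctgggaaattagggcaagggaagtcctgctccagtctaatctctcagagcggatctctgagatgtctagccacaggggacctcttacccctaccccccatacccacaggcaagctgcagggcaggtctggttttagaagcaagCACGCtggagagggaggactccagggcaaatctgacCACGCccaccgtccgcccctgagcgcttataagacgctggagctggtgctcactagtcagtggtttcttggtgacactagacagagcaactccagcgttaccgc
Bhlhe41: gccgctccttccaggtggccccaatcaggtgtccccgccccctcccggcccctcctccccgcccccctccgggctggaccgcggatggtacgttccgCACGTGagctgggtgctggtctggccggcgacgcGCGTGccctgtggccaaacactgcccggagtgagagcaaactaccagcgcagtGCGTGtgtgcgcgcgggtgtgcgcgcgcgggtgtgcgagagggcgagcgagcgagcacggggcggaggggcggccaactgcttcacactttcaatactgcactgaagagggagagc

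At least 1 match lay in 43.8% of the 32851 RefSeq mouse promoters, 2 or more in 17.3% and 3 or more in 6.55%. Of the 7 genes matched in that table, all had a promoter with a match: *Ddit4*, *Stc2* and *Rora* held 2 each, and *Mxi1* held 0, 1 and 1 in its 3 promoters. The *Bhlhe41* match at 153 bases was also the E-box CACGTG, present in 7.15% of all promoters and in no other promoter of these genes. Neither AGGTCA, the core of RORA's element, found in 16.3% of promoters, nor TGATGCAA, an ATF4-type element found in 0.895%, occurred in any of the 9 promoters on either strand. *Bhlhe41* held as many matches as *Ankrd37*, and whether any match acts in these cells was not tested.

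Per kilobase of exon, *Adm* was the most abundant of the 10 genes in every group, at 166 ± 40.2 CPM per kb in Ctrl in 20% O2 (mean ± SD, n = 3, as for all levels). *Bhlhe40* (19.6 ± 5.20) and *Ndrg1* (16.0 ± 2.11) followed within their spread of each other, and then *Ddit4* (8.19 ± 1.17), *Mxi1* (5.48 ± 0.782) and *Rora* (3.91 ± 0.386). *Stc1* (1.29 ± 0.238) and *Ankrd37* (1.09 ± 0.602) did not differ beyond their spread, and *Stc2* (0.734 ± 0.127) and *Bhlhe41* (0.412 ± 0.0995) were the lowest. In Ctrl in 1% O2, *Ankrd37* reached 7.82 ± 1.59 CPM per kb and stood above *Rora* (5.38 ± 0.377), and *Adm* reached 391 ± 60.8. In 1% O2 *Ankrd37* and *Rora* lay within their spread of each other in cKO (6.11 ± 2.23 and 5.84 ± 0.388) and gesicle-treated TFs (4.82 ± 0.774 and 4.91 ± 0.465).

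**Figure D1:**
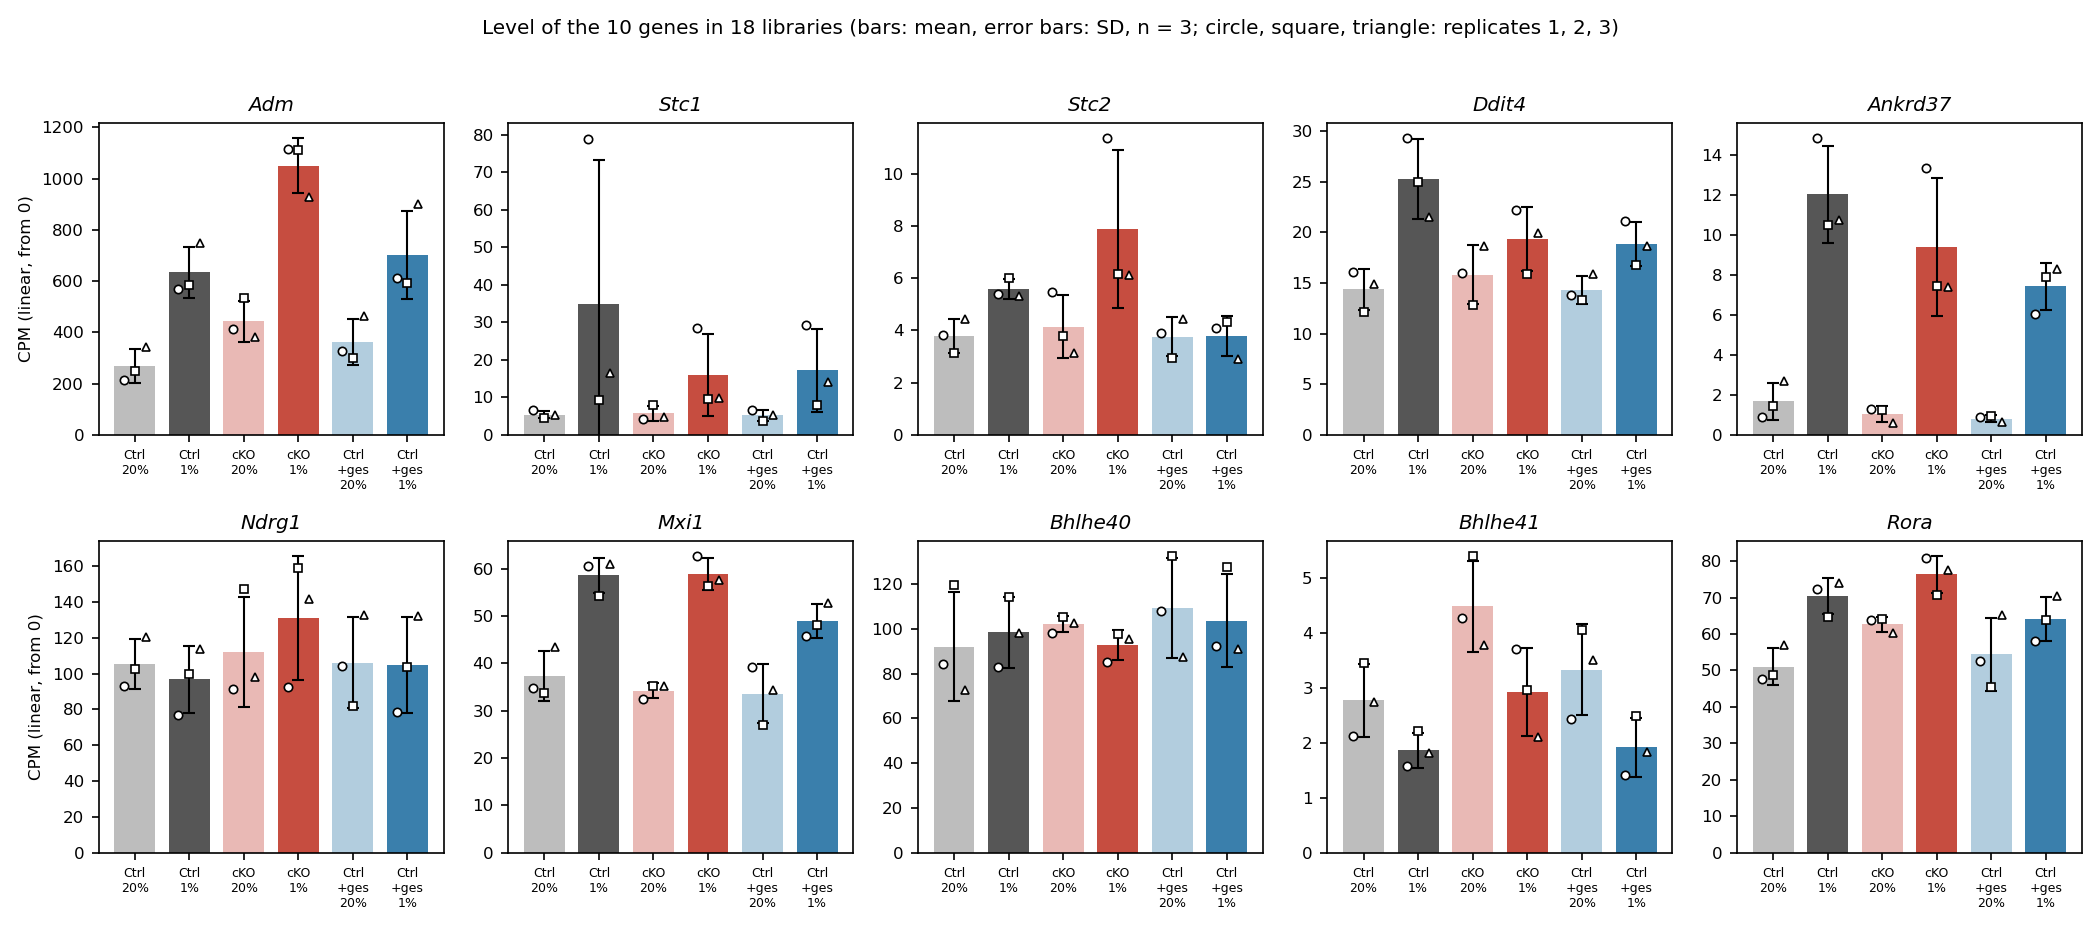
CPM of each gene (y axis, linear from 0, scaled per panel) in the 6 groups, with bars for the mean, error bars for the SD of 3 libraries and open symbols for the replicates (ges: Cre gesicles). *Adm* and *Ankrd37* were higher in every 1% O2 library than in any 20% O2 library of the same arm, while the 2 O2 levels of *Ndrg1* and *Bhlhe40* lie close together and *Bhlhe41* is lower on average in 1% O2.

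In 1% O2, 4 of the 10 genes rose in Ctrl TFs (*Ankrd37*, *Adm*, *Ddit4* and *Mxi1*), 3 in cKO TFs (*Ankrd37*, *Adm* and *Mxi1*) and 2 in gesicle-treated TFs (*Ankrd37* and *Adm*), and none fell. A gene was called at a Benjamini-Hochberg adjusted p under 0.05 in edgeR's quasi-likelihood test over all genes and a fold change of at least 1.5. The same rule called 1.88% of all genes tested in Ctrl, 2.1% in cKO and 2.41% in gesicle-treated TFs, and those called higher were 1.47%, 1.4% and 1.64%. The O2 levels did not overlap, in either direction, for 7 of the 10 genes in Ctrl, 8 in cKO and 5 in gesicle-treated TFs, as for 30%, 20.6% and 24% of all genes. Those in cKO included *Bhlhe40* and *Bhlhe41*, which were lower in 1% O2. The median log2 fold change of the 10 genes was 0.61, 0.54 and 0.32 in the 3 arms, against 0.00020, -0.029 and -0.020 over all genes tested. *Ankrd37* and *Adm* belonged to the 0.732% of genes called higher in every arm, and the 3 arms were not independent checks where libraries shared a mouse.

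**Figure D2:**
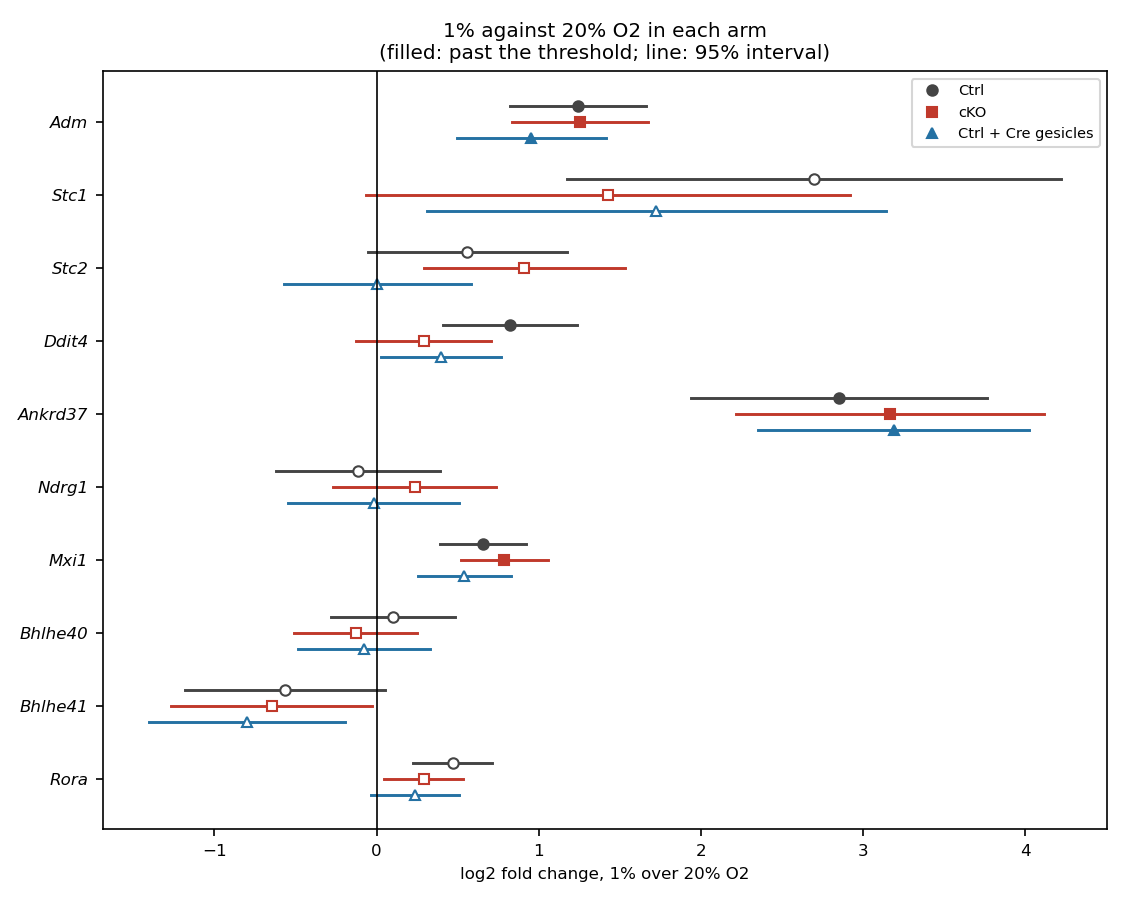
Log2 fold change at 1% over 20% O2 (x axis) of each gene in Ctrl (circles), cKO (squares) and gesicle-treated TFs (triangles), with lines for the 95% confidence interval and filled symbols for called genes. *Ankrd37* lies near 3 and *Adm* near 1 in all arms, *Stc1* has the widest intervals, and *Bhlhe41* lies below 0 in each arm.

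*Adm* was the most highly expressed hormone gene and rose about equally in all arms. It stood at 214, 251 and 341 CPM in the Ctrl libraries in 20% O2 and at 570.3, 583 and 747 CPM in 1% O2. In cKO TFs the values were 412, 534 and 384 CPM in 20% O2 and 1115, 1110.0 and 927 CPM in 1% O2. In gesicle-treated TFs they were 326, 298 and 463 CPM and then 612, 593 and 901 CPM. No 1% O2 library overlapped the 20% O2 libraries of its arm. The log2 fold changes were 1.24 ± 0.19 (SE, n = 3 per group, edgeR adjusted p = 0.00664) in Ctrl, 1.25 ± 0.19 (adjusted p = 0.00735) in cKO and 0.95 ± 0.22 (adjusted p = 0.027) in gesicle-treated TFs. The Ctrl and cKO rises stayed called without any single library, whereas the gesicle call was lost without replicate 1 or 2 in 20% O2 or replicate 3 in 1% O2 (adjusted p = 0.0847, 0.146 and 0.145) and with only these groups fitted (adjusted p = 0.124).

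Of 11 genes that encode relatives of adrenomedullin, such as CGRP, or that process or receive these peptides, 7 were tested in Ctrl and cKO TFs and 8 in the gesicle fit. *Calca*, *Calcb* and *Gpr182* passed the filter on low counts in neither fit and *Ramp3* in the gesicle fit alone. Of those tested, *Ramp1* was the only one called, in cKO and gesicle-treated TFs. *Ramp1* encodes a partner protein that turns the receptor CALCRL toward the related peptide CGRP, whereas RAMP2 and RAMP3 turn it toward adrenomedullin. It rose by 2.26 ± 0.36 on the log2 scale in cKO TFs (adjusted p = 0.00903, from 3.61 ± 0.892 to 17.3 ± 5.81 CPM) and by 1.77 ± 0.39 in gesicle-treated TFs (adjusted p = 0.0227, from 5.36 ± 2.91 to 18.2 ± 2.73 CPM). In Ctrl TFs its log2 fold change was 0.65 ± 0.35 (adjusted p = 0.396), at 6.95 ± 2.51 CPM in 20% O2 and 10.8 ± 3.39 CPM in 1% O2. *Calcrl* itself had log2 fold changes of 0.44, 0.49 and 0.25 in Ctrl, cKO and gesicle-treated TFs, *Ramp2* of -0.51, -0.10 and 0.20, and *Pam*, whose enzyme amidates the peptide, of 0.20, -0.020 and 0.082, none of them called.

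*Stc1* was higher in every 1% O2 library than in any 20% O2 library of its arm, but its rise varied widely between replicates and was not called. It stood at 6.49, 4.52 and 5.20 CPM in Ctrl TFs in 20% O2 and at 79.0, 9.20 and 16.5 CPM in 1% O2. In cKO TFs it went from 4.27, 8.07 and 4.87 CPM to 28.4, 9.44 and 9.90 CPM, and in gesicle-treated TFs from 6.60, 3.80 and 5.19 CPM to 29.3, 7.99 and 14.2 CPM. Replicate 1 was the highest library in each 1% O2 group, and the lowest 1% O2 values stood only a little above the highest 20% O2 values. The log2 fold change was 2.699 ± 0.70 in Ctrl (edgeR adjusted p = 0.0742), 1.43 ± 0.69 in cKO (adjusted p = 0.273) and 1.73 ± 0.67 in gesicle-treated TFs (adjusted p = 0.183). Without Ctrl replicate 1 in 1% O2 the Ctrl value was 1.26 (adjusted p = 0.323), and without replicate 2 it was 3.15 and called (adjusted p = 0.0298). Without replicate 1 in 1% O2 the cKO value was 0.77 (adjusted p = 0.644) and the gesicle value 1.10 (adjusted p = 0.446). *Stc1* was also called in Ctrl by DESeq2 without and with the replicate block (adjusted p = 0.0133 and 0.0429) and by limma voom (adjusted p = 0.0289). So it was by edgeR with no filter on low counts (adjusted p = 0.0031) and in the fit of all 18 libraries (adjusted p = 0.0435). DESeq2 with the replicate block called the gesicle value as well (log2 1.55, adjusted p = 0.0195).

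*Stc2*, the related gene, was low, and its 1% O2 libraries exceeded the 20% O2 libraries in Ctrl and cKO TFs but not in gesicle-treated TFs. It ran from 3.13 to 4.44 CPM in Ctrl in 20% O2 and from 5.34 to 6.02 CPM in 1% O2, and in cKO from 3.15 to 5.48 CPM and from 6.13 to 11.4 CPM. In gesicle-treated TFs the ranges were 2.94 to 4.44 CPM and 2.92 to 4.33 CPM. The log2 fold changes were 0.56 ± 0.28 (adjusted p = 0.36), 0.91 ± 0.29 (adjusted p = 0.115) and 0.0053 ± 0.27 (adjusted p = 0.994), and DESeq2 called the cKO value (adjusted p = 0.0323). None of the 6 stanniocalcin partners (*Pappa*, *Pappa2*, *Igfbp4*, *Igfbp5*, *Igf1* and *Igf1r*) was called in any arm, with medians of -0.28, -0.35 and -0.039. *Igf1* had the lowest adjusted p of those named here in Ctrl, with a log2 fold change of -0.61 ± 0.22 (adjusted p = 0.203).

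*Ankrd37*, which encodes a small ankyrin repeat protein, had the largest fold change of the 10 genes in every arm. It stood at 0.911, 1.42 and 2.71 CPM in Ctrl TFs in 20% O2 and at 14.8, 10.5 and 10.8 CPM in 1% O2. In cKO TFs the values were 1.29, 1.25 and 0.589 CPM and then 13.4, 7.45 and 7.38 CPM, and in gesicle-treated TFs 0.880, 0.928 and 0.631 CPM and then 6.07, 7.89 and 8.30 CPM. The groups were far apart in each arm, and the highest of all 20% O2 libraries lay below the lowest 1% O2 library. The fold change was 7.21 in Ctrl (log2 2.85 ± 0.42, edgeR adjusted p = 0.00439), 8.97 in cKO (log2 3.16 ± 0.44, adjusted p = 0.00316) and 9.11 in gesicle-treated TFs (log2 3.19 ± 0.39, adjusted p = 2.83e-04). No alternative and no left-out library removed the call in any arm. Its exons share 57 bases with *Ufsp2* and 349 with *Lrp2bp* on the opposite strand, and since the strand setting of the counting was not given in the sources used here, a part of its counts could belong to them.

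*Ddit4*, the mTORC1 inhibitor also known as REDD1, rose in Ctrl TFs, close to the threshold. It stood at 16.1, 12.1 and 14.9 CPM in 20% O2 and at 29.3, 24.99 and 21.5 CPM in 1% O2, without overlap, a log2 fold change of 0.82 ± 0.19 (edgeR adjusted p = 0.0491). In cKO TFs it went from 15.9, 12.8 and 18.7 CPM to 22.2, 15.9 and 20.0 CPM, which overlapped (log2 0.29 ± 0.19, adjusted p = 0.416). In gesicle-treated TFs it went from 13.8, 13.3 and 15.9 CPM to 21.1, 16.8 and 18.6 CPM (log2 0.40 ± 0.17, adjusted p = 0.255). The 20% O2 ranges overlapped between the 3 arms. In 1% O2 the mean was highest in Ctrl, although replicate 1 of cKO lay above replicate 3 of Ctrl, and the interaction of genotype and O2 was -0.53 (95% interval -1.12 to 0.056, adjusted p = 1). The Ctrl call was lost without any of the 6 Ctrl libraries (adjusted p from 0.0732 to 0.184). Among 15 genes of mTORC1 control, the related inhibitor *Ddit4l* was the only gene called in any arm, in Ctrl TFs (log2 0.95 ± 0.19, adjusted p = 0.0235), and its values were 0.65 ± 0.19 in cKO (adjusted p = 0.0975) and 0.40 ± 0.17 in gesicle-treated TFs (adjusted p = 0.231). DDIT4 is also a target of the stress factor ATF4, and of 8 genes of that response only *Chac1*, a glutathione-degrading enzyme, was called, in cKO (log2 0.87 ± 0.20, adjusted p = 0.0459) and gesicle-treated TFs (log2 0.80 ± 0.20, adjusted p = 0.046).

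*Ndrg1*, often used as a hypoxia marker in tumour cells, was abundant and was not called in any arm. Its values were 93.1, 102 and 120.4 CPM in Ctrl TFs in 20% O2 and 77.0, 99.7 and 114 CPM in 1% O2. In cKO TFs they were 91.3, 147 and 97.9 CPM and then 92.4, 159 and 142 CPM, and in gesicle-treated TFs they ran from 81.7 to 133 CPM and from 78.8 to 132 CPM. The log2 fold changes were -0.11 (95% interval -0.62 to 0.39, edgeR adjusted p = 0.866), 0.24 (interval -0.27 to 0.74, adjusted p = 0.611) and -0.018 (interval -0.55 to 0.51, adjusted p = 0.982). Limma voom, which weights libraries by quality, called the cKO value (log2 0.59, adjusted p = 0.00802). Its relative *Ndrg2* behaved otherwise, going from 5.23, 6.46 and 5.66 CPM to 21.2, 15.7 and 17.6 CPM in Ctrl TFs, without overlap. *Ndrg2* was called in all 3 arms, with log2 fold changes of 1.66 ± 0.19, 1.75 ± 0.19 and 1.65 ± 0.17 in Ctrl, cKO and gesicle-treated TFs. *Ndrg3* was called in Ctrl only (log2 0.62 ± 0.14, adjusted p = 0.0353), its gesicle value of 0.48 ± 0.12 (adjusted p = 0.047) being under the fold minimum, and *Ndrg4* and the kinase gene *Sgk1*, whose product phosphorylates NDRG1, in no arm.

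*Mxi1*, which encodes a MAX partner that represses MYC targets, rose modestly with little spread. It stood at 34.8, 33.8 and 43.5 CPM in Ctrl TFs in 20% O2 and at 60.6, 54.3 and 60.9 CPM in 1% O2. In cKO TFs it went from 32.5, 35.2 and 35.1 CPM to 62.7, 56.4 and 57.6 CPM, and in gesicle-treated TFs from 39.3, 26.9 and 34.5 CPM to 45.7, 48.1 and 52.8 CPM. None of the 3 arms showed overlap between O2 levels. The log2 fold change was 0.66 ± 0.12 in Ctrl (edgeR adjusted p = 0.0168), 0.79 ± 0.12 in cKO (adjusted p = 0.00787) and 0.54 ± 0.13 in gesicle-treated TFs (adjusted p = 0.0417), where the fold of 1.46 was under the minimum. The Ctrl call was lost without replicate 1 or 2 in 20% O2 or replicate 1 or 3 in 1% O2 (adjusted p from 0.067 to 0.105). Of 12 other genes of the MYC, MAX and MXD network, 11 were tested and none was called in any arm, with medians of -0.22, -0.28 and -0.25. *Myc* had log2 fold changes of -0.23, -0.27 and -0.40, and *Mxd1*, a gene of the same family as *Mxi1*, of 0.065, 0.028 and 0.072.

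The related repressors *Bhlhe40* and *Bhlhe41* were called in no arm, and the *Bhlhe41* values were lower in 1% O2. *Bhlhe40* ran from 72.5 to 119 CPM in Ctrl in 20% O2 and from 82.8 to 114 CPM in 1% O2, with log2 fold changes of 0.10 (95% interval -0.28 to 0.48), -0.13 (-0.51 to 0.25) and -0.078 (-0.48 to 0.33) in Ctrl, cKO and gesicle-treated TFs. In cKO its 1% O2 libraries (85.4 to 97.7 CPM) lay just below its 20% O2 libraries (98.1 to 105 CPM), without overlap. *Bhlhe41* stood at 2.12, 3.45 and 2.74 CPM in Ctrl in 20% O2 and at 1.57, 2.20 and 1.81 CPM in 1% O2. In cKO TFs it went from 4.27, 5.40 and 3.78 CPM to 3.70, 2.96 and 2.10 CPM, and in gesicle-treated TFs from 2.43, 4.05 and 3.51 CPM to 1.42, 2.49 and 1.84 CPM. The group mean was lower in 1% O2 in each arm, and the groups did not overlap in cKO only, where replicate 1 in 1% O2 rested on 26 counts. The log2 fold changes were -0.56 ± 0.28 (edgeR adjusted p = 0.359), -0.65 ± 0.29 (adjusted p = 0.236) and -0.80 ± 0.29 (adjusted p = 0.151), so no call was made. DESeq2 with the replicate block called the gesicle value (adjusted p = 0.0105).

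*Rora*, a nuclear receptor that activates clock genes, was 47.6, 48.8 and 56.9 CPM in Ctrl TFs in 20% O2 and 72.3, 64.8 and 74.0 CPM in 1% O2, without overlap. Its log2 fold change was 0.47 ± 0.11 (edgeR adjusted p = 0.0541) in Ctrl, 0.29 ± 0.11 (adjusted p = 0.184) in cKO and 0.24 ± 0.13 (adjusted p = 0.354) in gesicle-treated TFs, under the 1.5-fold minimum throughout. The O2 groups did not overlap in cKO and overlapped in gesicle-treated TFs. Of 17 clock genes that these regulators act on, *Nfil3* was the only one called, in cKO TFs (log2 0.91 ± 0.21, adjusted p = 0.0453). *Arntl*, which RORA activates, had log2 fold changes of 0.54 ± 0.18, 0.60 ± 0.18 and 0.41 ± 0.17 in Ctrl, cKO and gesicle-treated TFs (adjusted p = 0.176, 0.111 and 0.204), and *Per1* of -0.19, -0.57 and -0.11.

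For scale, 18 of 25 tested hypoxia effectors were called higher in Ctrl TFs, 15 in cKO and 16 in gesicle-treated TFs, and none lower, with medians of 1.31, 0.92 and 0.84. The largest in Ctrl were the lactate exporter gene *Slc16a3* (log2 6.44) and *Ndufa4l2* (5.42), and the smallest called were *P4ha2* (0.78) and *Gapdh* (0.89). The smallest called were *Egln1* (0.70) and *Pgk1* (0.84) in cKO, and *Eno1* (0.61) and *Egln1* (0.62) in gesicle-treated TFs. *Adm*, at 1.24 in Ctrl, lay near the median of these effectors and *Ankrd37*, at 2.85, above it.

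**Figure D3:**
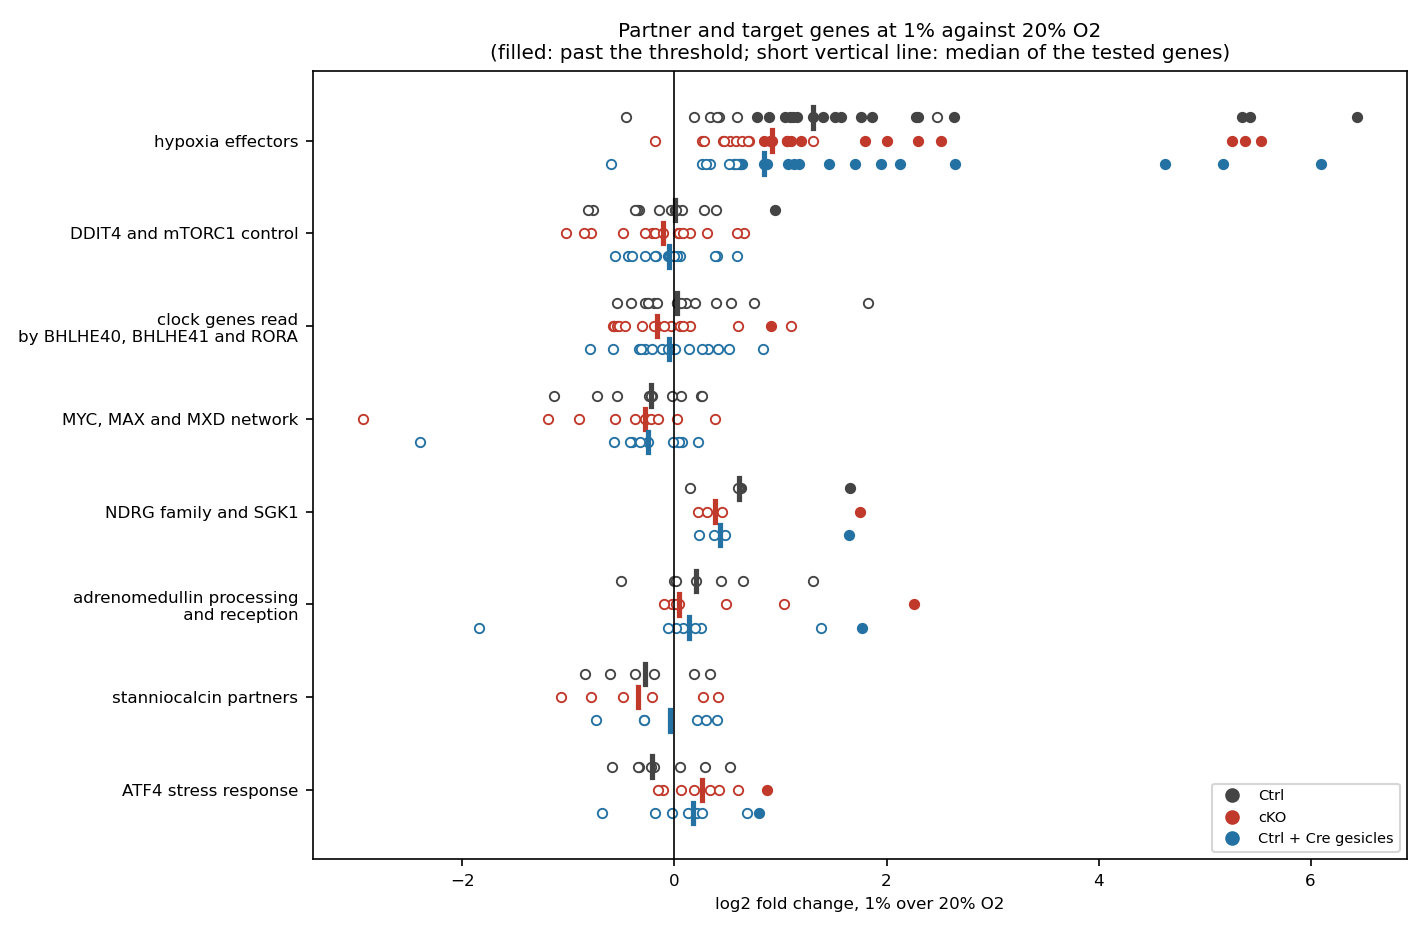
Log2 fold change at 1% over 20% O2 (x axis) of the tested genes of 8 lists in Ctrl (grey), cKO (red) and gesicle-treated TFs (blue), with filled symbols for called genes and short vertical lines for the list median. Hypoxia effectors spread to the right of 0, the NDRG family and SGK1 have medians of 0.61, 0.38 and 0.43 in Ctrl, cKO and gesicle-treated TFs, and the medians of the other 6 lists lie between -0.35 and 0.26.

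No gene of the 10 was called between cKO and Ctrl TFs in 20% O2, where 0.347% of all genes tested were, or in 1% O2, where 0.0379% were. At an unadjusted p under 0.05, edgeR counted 3 of the 10 in 20% O2 (14.3% of all genes) and 1 in 1% O2 (16.8%). By the adjusted p and fold rule, DESeq2 called *Adm* alone of the 10 at each level, and its share of all genes is not given here. The genotypes did not overlap for 3 of the 10 in 20% O2 (21.2% of all genes) and 2 in 1% O2 (27.3%). *Adm* was higher in cKO TFs at both O2 levels without overlap, by 0.72 ± 0.19 on the log2 scale in 20% O2 (95% interval 0.30 to 1.13, adjusted p = 0.151) and 0.73 ± 0.19 in 1% O2 (interval 0.31 to 1.14, adjusted p = 0.202). DESeq2 gave adjusted p of 0.0265 and 0.0236, and limma voom 0.0127 and 0.0204. Averaged over both O2 levels, a comparison added after the values were seen, *Adm* was called in the 12 libraries (log2 0.72 ± 0.13, adjusted p = 0.0166), as 3.78% of genes were. With the libraries of each replicate number summed, the difference was 0.54 ± 0.19 and was not called (adjusted p = 0.297), as against 0.15% of genes that were. The counts were summed unscaled, so number 1 of cKO drew mostly on 20% O2 (26967440 counts against 6857558 in 1% O2). In cKO the numbers were also not shown to pair the libraries. The sum of the tendon markers was lower in cKO in 20% O2, at 4249 to 9354 CPM against 10602 to 12629 CPM in Ctrl. It overlapped in 1% O2 (5106 to 8409 CPM against 5616 to 13028 CPM). Its members were split in 20% O2, and none of them was called. *Col1a1* (log2 -1.15), *Col1a2* (-0.35) and *Fmod* (-0.30) were lower in cKO. *Tnmd* (0.85), *Mkx* (0.59), *Thbs4* (0.20), *Pdgfra* (0.16) and *Scx* (0.072) were higher. The sum of the 4 skeletal muscle markers was also lower in cKO without overlap, at 12.4 to 17.9 CPM against 24.4 to 47.7 CPM in 20% O2. In 1% O2 this sum was 18.6 to 24.1 CPM against 26.5 to 35.7 CPM. In 20% O2 *Acta1* was called lower (log2 -1.28 ± 0.24, edgeR adjusted p = 0.0449) and *Des* was not called (-0.24 ± 0.42). *Myod1* and *Myog* were not tested, and *Myod1* had no counts in untreated Ctrl libraries and no more than 3, the floor, in any cKO library. The 3 keratinocyte markers summed to 4.46 to 7.58 CPM in cKO against 3.44 to 3.96 CPM in Ctrl in 20% O2 and overlapped in 1% O2, and the 4 Schwann cell markers overlapped at both O2 levels (9.64 to 16.3 CPM against 5.33 to 10.6 CPM in 20% O2). Their part in the *Adm* difference was not tested.

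*Bhlhe41* was also higher in cKO TFs, by 0.69 ± 0.28 in 20% O2, without overlap (adjusted p = 0.318), and by 0.61 ± 0.29 in 1% O2 (adjusted p = 0.307), and *Rora* by 0.29 ± 0.11 in 20% O2 (adjusted p = 0.302) and 0.11 ± 0.11 in 1% O2 (adjusted p = 0.596). *Ankrd37* was -0.70 ± 0.42 in 20% O2 (adjusted p = 0.436) and -0.39 ± 0.39 in 1% O2 (adjusted p = 0.604), and *Ddit4* was -0.40 ± 0.19 in 1% O2 (adjusted p = 0.312). *Stc1* was -1.18 ± 0.67 in 1% O2 (adjusted p = 0.372), a value that turned to 0.26 without replicate 1 of Ctrl in 1% O2. *Mxi1* was closest to equality in 1% O2, at 0.0019 (95% interval -0.26 to 0.27). These comparisons share the Ctrl and cKO libraries with the O2 comparisons.

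**Figure D4:**
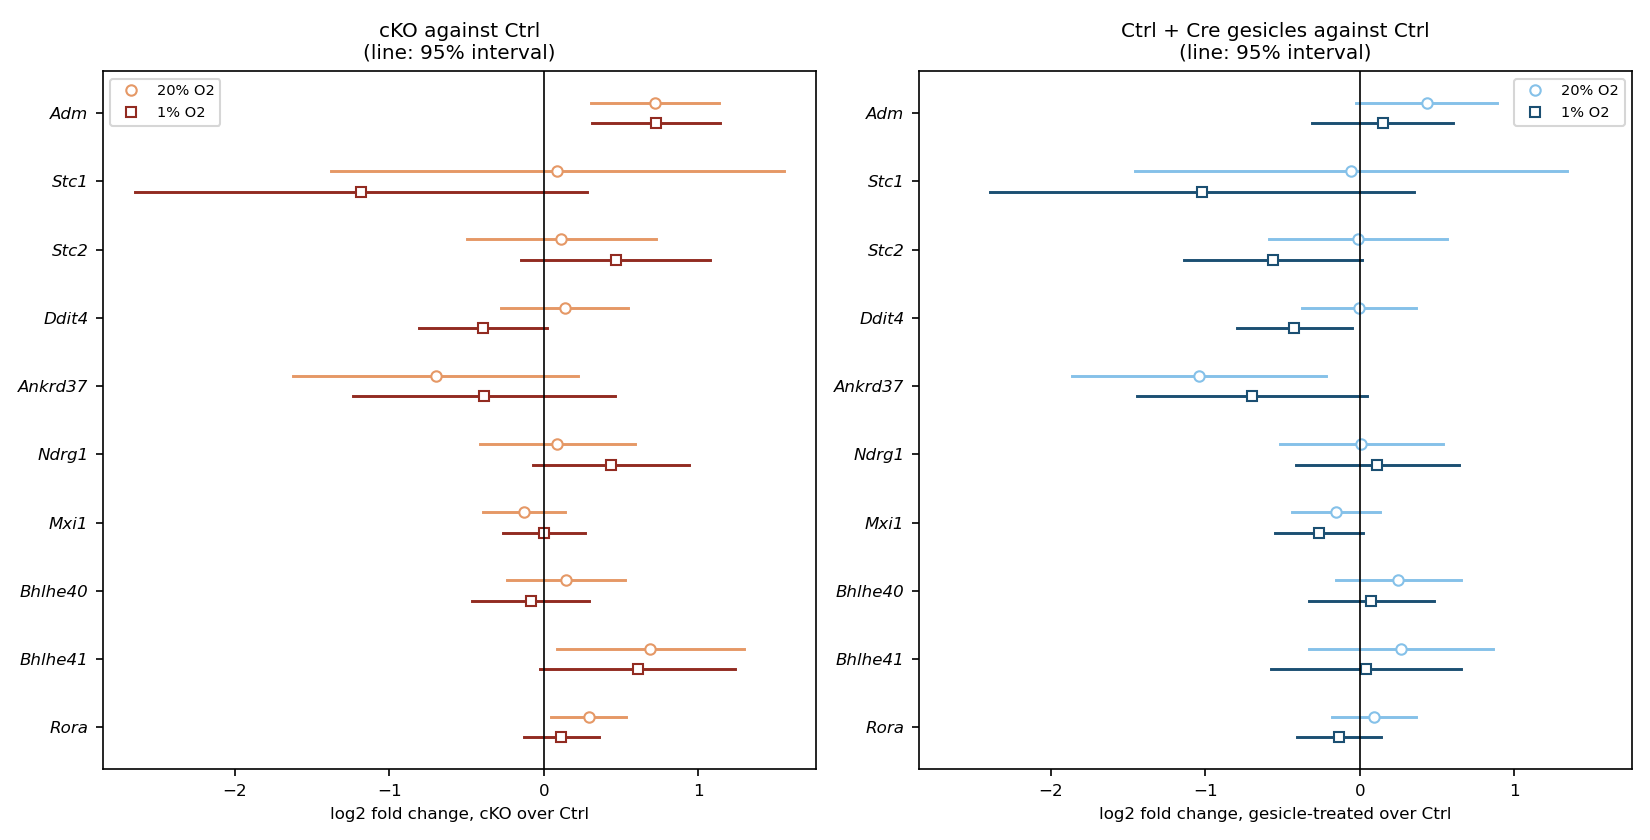
Log2 fold change (x axis) of each gene for cKO over Ctrl TFs (left) and gesicle-treated over Ctrl TFs (right) in 20% O2 (circles) and 1% O2 (squares), with lines for the 95% confidence interval. No symbol is filled because no gene was called, and *Adm* lies near 0.72 at both O2 levels in the left panel.

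The O2 responses did not differ detectably between cKO and Ctrl TFs: none of the 10 interactions was called, as was 0% of all genes tested, and at an unadjusted p under 0.05 edgeR counted 0 of the 10 and 2.32% of all genes. The interaction was 0.0082 for *Adm* (95% interval -0.58 to 0.59), 0.13 for *Mxi1* (interval -0.25 to 0.51) and 0.31 for *Ankrd37* (interval -0.93 to 1.56). The interval for *Stc1* was the widest (-3.33 to 0.80, around -1.27). DESeq2 called no interaction among the 10 genes either. Counts were simulated for this interaction with the same spread beyond counting noise for every gene. There, 4 of 67 genes changed by 2-fold were found and 49 of 66 changed by 4-fold, so 2-fold differences were mostly missed. The interaction SEs of the 10 genes ran from 0.16 for *Rora* to 0.95 for *Stc1*, so these rates do not give the reach for each gene.

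Cre gesicles given to Ctrl TFs changed no gene of the 10 by the same rule, and they changed 0.0247% of all genes in 20% O2 and 0% in 1% O2. At an unadjusted p under 0.05, edgeR counted 1 of the 10 at each O2 level (3.67% and 2% of all genes). By the adjusted p and fold rule, DESeq2 called none of the 10. In 20% O2 all 10 overlapped with Ctrl, while 12.5% of all genes did not, and *Ankrd37* was -1.04 ± 0.39 on the log2 scale against Ctrl (adjusted p = 1) and *Adm* 0.43 ± 0.22 (adjusted p = 1). In 1% O2 the gesicle-treated libraries lay below all Ctrl libraries for 4 genes, where 6.32% of all genes did not overlap in either direction. These were *Ankrd37* (-0.70 ± 0.35), *Stc2* (-0.56 ± 0.27), *Ddit4* (-0.42 ± 0.17) and *Mxi1* (-0.26 ± 0.13), each with an adjusted p of 1. The interaction of gesicles and O2 was called for no gene, and at an unadjusted p under 0.05 edgeR counted 0 of the 10 and 1.5% of all genes, with -0.42 (95% interval -0.94 to 0.11) for *Ddit4* and -0.55 (interval -1.36 to 0.27) for *Stc2*.

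Across the 18 libraries, the gene outside the set whose log2 CPM was most like that of each member was found by Pearson's r, as a description, since the libraries share 3 arms and 2 O2 levels. For *Ankrd37* it was *Ndrg2* (r = 0.98), for *Adm* the glutathione transferase gene *Gstm1* (r = 0.957), for *Mxi1* the related *Gstm6* (r = 0.954) and for *Rora* the cyclin gene *Ccng2* (r = 0.941). *Ppp1r3b*, a glycogen-targeting phosphatase subunit, was nearest to *Ddit4* (r = 0.893), and the heat shock gene *Hspa1b* to *Stc1* (r = 0.938). *Ndrg1* was nearest to the myelin protein gene *Pmp22* (r = 0.919), *Bhlhe41* to *Tspan15* (r = 0.904), *Stc2* to *Wdcp* (r = 0.905) and *Bhlhe40* to *Fign* (r = 0.848). After group means were removed, *Adm* and *Rora* still deviated together (r = 0.762), as did *Mxi1* and *Rora* (r = 0.699) and *Ndrg1* and *Adm* (r = 0.688), whereas *Bhlhe40* ran against *Rora* (r = -0.634), *Ddit4* (r = -0.623) and *Mxi1* (r = -0.604). The replicate numbers that the groups share enter these deviations.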

How the data were processed

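RNA-seq of 18 TF libraries (3 per group) was used. The authors trimmed reads with cutadapt 4.8, mapped them to GRCm38 with STAR 2.7.8a and estimated counts per gene with RSEM 1.3.3. The deposited values are estimated counts, rounded to whole numbers and not normalized, for 55491 rows including 4 transgene rows. Whether the counting used strand is not given in the sources used here. The labels give 10% serum where the methods give 1%, and this was not used.

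Groups followed the labels. Counts were tested with edgeR 4.0.16 (R 4.3.3) after TMM scaling and filterByExpr, by its quasi-likelihood test with a coefficient for each group. The 12 libraries without gesicles were fitted together (15850 genes), and gesicle comparisons used all 18 (16174 genes), with Benjamini-Hochberg adjustment over all genes. Calls needed an adjusted p under 0.05 and a fold of at least 1.5. SE was taken as the fitted log2 difference over the root of its F statistic. CPM used TMM-scaled totals (factors 0.962 to 1.03), and 3 counts, the floor, equal 0.0592 to 0.426 CPM. Intervals cover 95%. Positions and exon lengths came from GENCODE M21. Alternatives were DESeq2 1.42.0, the replicate block, both together, RLE size factors, no filter, CPM above 1 in at least 3 libraries, the groups compared only, all 18 libraries, limma 3.58.1 voom with quality weights, *Xist* as a covariate, no fold minimum and each library left out. The test was tried on counts simulated with the same spread beyond counting noise for every gene. In Ctrl 1% against 20% O2, 6 of 67 genes changed 1.5-fold, 30 of 67 changed 2-fold and 63 of 66 changed 4-fold were found.

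The 10 genes and the lists were chosen with earlier results of these data known. All members were described, and from each list the genes called were named, or where more than 4 were called the 2 largest and 2 smallest, plus partners needed to describe a member, and for each member the gene with the highest r. The methods name 3 mice per genotype. Same-numbered libraries deviated together in all pairs for Ctrl across O2 (correlations of deviations from 0.271 to 0.458) and for gesicle-treated against Ctrl (0.346 to 0.462 in 20% O2, 0.193 to 0.284 in 1% O2), so these numbers were read as pairs. Nothing states that all libraries came from separate mice, so p-values measure the spread between these samples.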

Additional observations from a re-analysis of the deposited data

Results flagged for a closer look

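*Ndrg1* drew attention because its O2 response went opposite ways in the 2 genotypes: all 3 Ctrl replicate numbers were lower in 1% O2 (log2 ratios -0.27, -0.038 and -0.080) and all 3 cKO numbers were higher (0.019, 0.11 and 0.54). The interaction itself was 0.35 ± 0.33 on the log2 scale (95% interval -0.36 to 1.06, edgeR adjusted p = 1), so the difference did not pass the test. In cKO the numbers were not shown to pair the libraries, so those 3 ratios only set same-numbered libraries side by side.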

How the results depend on the processing

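Of the 11 alternatives without left-out libraries for Ctrl in 1% against 20% O2, all kept the count of called genes between 3 and 5 against 4. In cKO the count was 3 and became 5 with limma voom, 4 with DESeq2 with or without the block (*Stc2* gained) and 2 with only these groups fitted. In gesicle-treated TFs it was 2 and became 4 with DESeq2 and the replicate block together and 1 with only these groups fitted. *Mxi1* was also gained there with limma voom (adjusted p = 0.00969) and with no fold minimum (edgeR adjusted p = 0.0417). For cKO against Ctrl in 20% O2 and in 1% O2 the count was 0 and became 1 with DESeq2, DESeq2 with the block and limma voom. For the average over both O2 levels it was 1 and became 0 with the libraries of each number summed. The edgeR replicate block changed no call. The share of all genes called under each alternative is not given here, so a changed count may reflect a test that calls more or fewer genes throughout. With a library left out the counts ran from 2 to 4 in Ctrl, 3 to 3 in cKO and 1 to 2 in gesicle-treated TFs, and stayed at 0 for the other 6 comparisons. The *Ddit4* call in Ctrl was lost with RLE size factors (adjusted p = 0.0606), with only these groups fitted (0.0514) and with *Xist* as a covariate (0.0569), and the *Mxi1* call in cKO with only these groups (0.059). Signs turned in the following cases. *Stc2* in gesicle-treated TFs across O2 was -0.0049 with DESeq2, -0.0037 with DESeq2 and the block, -0.0042 with RLE and -0.0047 with only these groups, *Ndrg1* in Ctrl across O2 was 0.053 and *Ddit4* in cKO across O2 -0.089 with limma voom, and the *Adm* interaction of genotype and O2 was -0.0066 with *Xist*. With libraries left out, values across O2 ran from -0.046 to 0.34 for *Bhlhe40* and -0.25 to 0.026 for *Ndrg1* in Ctrl, and in gesicle-treated TFs from -0.26 to 0.082 for *Bhlhe40*, -0.24 to 0.17 for *Ndrg1* and -0.15 to 0.14 for *Stc2*. The genotype interaction ran from -0.21 to 0.61 for *Ankrd37*, -0.20 to 0.19 for *Adm* and -1.91 to 0.18 for *Stc1*, and *Stc1* in cKO against Ctrl in 1% O2 from -1.84 to 0.26. The causes were not tested. Pairing was not met for cKO across O2 (0.0921 to 0.368), gesicle-treated across O2 (-0.0061 to 0.22) or cKO against Ctrl, so a shared number there is only a number. With 3 libraries per group, 1.5-fold changes were mostly missed in simulated data, and low counts of *Bhlhe41*, *Stc2* and *Ankrd37* limit their precision.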
